A study of Drosophila melanogaster with 90 samples.

Results

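Expression of 6 sugar-responsive genes was followed through 24 h after mating in the heads of female Drosophila melanogaster: Mondo, sug, tobi, Srg1, Amy-p and Amy-d. They were picked by FlyBase symbol from the 9027 genes of the deposited count table, and all 6 were in it and passed the filter on low counts that left 9024 genes for testing. Srg1 and Amy-p belong to the set because earlier results of these libraries had singled them out, Srg1 for its higher level in females mated to wildtype males and Amy-p for a high virgin value at 4 h. Those contrasts are given as descriptions with no test.

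Females of the Canton-S genotype, kept on yeast and glucose food in alternating 12 h of light and dark, were mated in the morning to wildtype males (SP+ females) or to males that lack Sex Peptide (SP- females), or were left as virgins frozen in parallel. Sex Peptide is passed in the seminal fluid and acts on the female after mating. Heads were taken at 0.5 h, hourly between 1 h and 6 h, and at 8 h, 12 h and 24 h, and the whole series was run 3 times, as repeats A, B and C. Of 90 samples, 87 libraries of poly(A) RNA were analysed: 27 groups had 3 libraries, and SP+ females at 2 h and 3 h and virgins at 6 h had 2, since repeat C of these was not analysed here.

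Mondo is the fly relative of the mammalian sugar-sensing factors MondoA and ChREBP. Together with its partner bigmax, also called Mlx, it binds DNA when sugar phosphates build up in the cell and turns on genes for glycolysis, the pentose phosphate pathway and fat synthesis. One of its best known targets is sug, or sugarbabe, a zinc finger factor that is induced by dietary sugar. The enzyme tobi is an alpha-glucosidase whose transcript is under the control of insulin-like peptides and the glucagon-like hormone AKH, and falls on sugar-rich diets. Amy-p and Amy-d encode the proximal and distal copies of alpha-amylase, the enzyme that cuts starch, which dietary glucose represses. The fat body, an organ for storage and hormone output that is also present in the head, is a main site of the sugar response in flies.

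All coordinates are on build BDGP6 (dm6). The single exon of Srg1 (FBgn0039239) lies on the minus strand at 3R:24864191-24864732. Its end overlaps that of CG7016, on the other strand, over 26 bp. The tobi gene (FBgn0261575) lies on the minus strand at 3R:25344761-25346921, 480028 bp from Srg1. Its 3′ exon overlaps rha, on the other strand, over 78 bp. The sug gene (FBgn0033782), on the plus strand at 2R:12924567-12930644, shares 98 bp with CG13319 on the same strand. Mondo (FBgn0032940) lies on the minus strand at 2L:21286078-21310050 in 12 exon blocks, with Gr39a on the other strand inside its introns. Amy-p (FBgn0000079), on the minus strand at 2R:17118636-17120303, and Amy-d (FBgn0000078), on the plus strand at 2R:17124764-17126369, are single-exon genes that stand 4460 bp apart. The amylase copies are near-identical, so reads of one may have been lost or counted for the other, and both are reported as uncertain in that respect.

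Total counts ran from 15411046 to 103387056 per library. Repeats A and C of SP+ females at 24 h stood apart from the other 85 libraries, with scores of -23.8 and -33.7 on the second principal component, and repeat A was also the deepest library. The next lowest scores on that component were also from SP+ females, -15.1 in repeat C at 8 h and -12.1 in repeat A at 12 h. Whether the 24 h libraries that stood apart are faulty or respond strongly was not tested. Calls of Mondo, tobi and the amylases at 24 h, and the Srg1 differences, are given without each of these 24 h libraries or over a range that includes this. The 24 h values of sug, of the marker lists, of CG7016 and of Ilp5, InR, AcCoAS and sut2 include both. The label of head tissue was checked on 7 neuron and photoreceptor genes, all detected, with ninaE at a median of 24392 CPM (read counts scaled to library size by edgeR's TMM method). The lowest of them, elav, had a median of 78.8 CPM. At 24 h, 2 of these 7 genes were called as lower in SP+ than SP- females, where 28.3% of all genes were called and 13.9% as lower. All 8 fat body markers were detected too, led by Yp1 at a median of 50341 CPM. A list of 23 midgut genes was not analysed here. Per kilobase of exon, the median level over all libraries was 113 CPM for tobi, 48.6 for sug, 28.4 for Mondo, 12.1 for Srg1, 5.32 for Amy-d and 2.34 for Amy-p.

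The sensor Mondo differed between treatments by small amounts that turned round between 12 h and 24 h. At 12 h, Mondo stood at 128, 119 and 120 CPM in SP+ females, 139, 151 and 158 CPM in SP- females and 148, 154 and 157 CPM in virgins. Every SP+ library lay below all 6 others. Here and below, groups that do not overlap are a description of few libraries and not a test. The share of all genes that do so is not given here. Mondo fell by 0.32 ± 0.0761 against virgins (log2 fold change with SE; adjusted p 0.00358, edgeR's quasi-likelihood test with Benjamini-Hochberg adjustment over all genes) and by 0.28 ± 0.0761 against SP- females (adjusted p 0.0095), where 6.32% and 9.82% of all genes were called. Both calls were lost without repeat B (adjusted p 0.071 and 0.155) or without repeat C (0.0875 and 0.172). In bulk heads, fewer cells of a type and less RNA per cell cannot be told apart, for any gene.

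At 24 h the order of the groups was the other way. Mondo stood at 154, 137 and 140 CPM in SP+ females, 129, 129 and 138 CPM in SP- females and 112, 129 and 115 CPM in virgins. SP+ libraries lay above all virgins, but their range overlapped that of SP- females. The difference from virgins was 0.28 ± 0.0758 (log2, SE; adjusted p 0.00425; 29.2% of all genes called), and that from SP- females was 0.13 ± 0.0758, which was not called (adjusted p 0.208; 95% interval -0.0221 to 0.275). The call against virgins was lost without repeat A, at 0.17, without repeat C, at 0.275 with an adjusted p of 0.068, and in a fit of the 24 h libraries alone (adjusted p 0.077). It held when either of the SP+ libraries that stood apart was left out. At 6 h Mondo was also lower in SP+ than SP- females, with 135, 140 and 135 CPM against 190, 158 and 152 CPM. That difference of -0.29 ± 0.076 (log2, SE; adjusted p 0.0184; 3.31% of all genes called) was lost whichever repeat was left out and was -0.19 without repeat A.

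Over all times together, Mondo was called between SP+ and virgin females (adjusted p 0.00147) and between the mated groups (adjusted p 0.00709). Among all genes these F tests called 28.6% and 18.5%, and both comparisons share the SP+ libraries. The first call was lost without repeat C (adjusted p 0.0719), the second without repeat B (0.104) or C (0.163). Between SP- and virgin females Mondo missed the threshold with an adjusted p of 0.057, and reached it with the repeat as a block (0.0311) and with DESeq2 (0.0251). The largest of these differences was 0.21 ± 0.0759 at 3 h, when SP- females had 171, 174 and 176 CPM and virgins 152, 140 and 159 CPM. Mondo also changed with time within each treatment, from a low of 123 CPM (mean of 3 libraries at 12 h) to a high of 165 CPM at 2 h in SP+ females. In SP- females the range of means was 132 CPM at 0.5 h to 174 CPM at 3 h, and in virgins 119 CPM at 24 h to 159 CPM at 4 h. The adjusted p for time was 0.0012 in SP+ females, 5.49e-06 in SP- females and 0.00147 in virgins, where all genes were called at rates of 52.6%, 36.5% and 29%. Without repeat A the first of these calls was lost (0.0872), and without repeat C the third (0.117).

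The deposited exon table lists 13 bins of Mondo, which together held a median of 28.1% of the gene's counts. The bin with the most reads, number 013, held 40.6% ± 2.28 of the listed Mondo counts in SP+ females (SD over 28 libraries), 41.5% ± 2.22 in SP- females (30 libraries) and 41.7% ± 2.19 in virgins (29 libraries). The next largest was bin 018, with 14.1% ± 1.48 in SP+ females, 14.4% ± 1.35 in SP- females and 14.3% ± 1.77 in virgins. Bin 012 followed with 12.9% ± 1.23, 13.4% ± 1.11 and 13% ± 1.24, in the same order. The smaller bin 014 held 10.4% ± 1.59 in SP+ females, 10.04% ± 1.16 in SP- females and 9.39% ± 1.18 in virgins. No test was run on the bins.

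**Figure D1:**
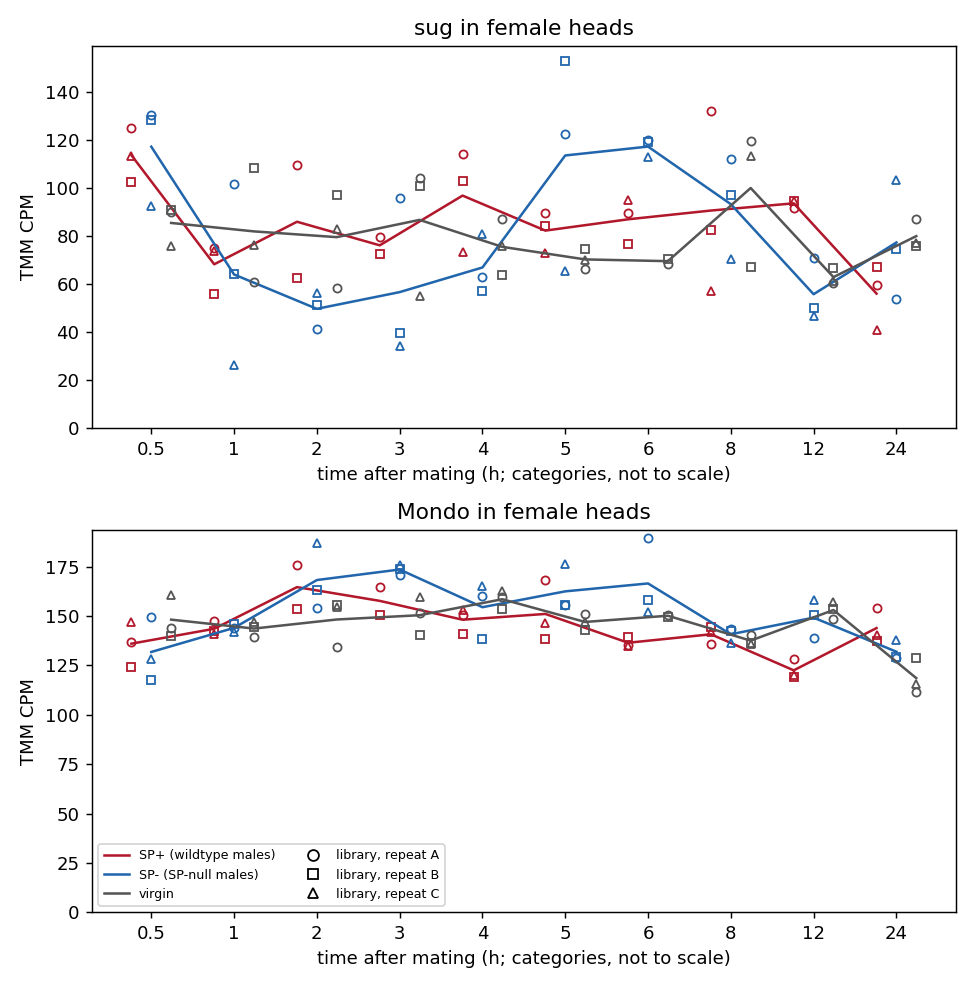
Expression of sug (upper panel) and Mondo (lower panel) in female heads, in TMM-scaled CPM on linear axes that start at 0, at 10 times after mating spaced as categories. Symbols are single libraries by repeat and lines join group means. Mondo of SP+ females is lowest at 12 h, with a mean of 123 CPM, while sug of SP- females dips to 49.6 CPM at 2 h and reaches 117 CPM at 6 h.

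The sugar-induced factor sug was not called in any comparison of treatments. Over all times the lowest adjusted p was 0.123 in edgeR's test (0.0541 with DESeq2), between the mated groups, and unadjusted p fell under 0.05 in 5 of the 30 single-time contrasts. The largest difference was at 2 h, where SP+ females had 109 and 62.4 CPM, SP- females 41.2, 51.4 and 56.3 CPM and virgins 58.3, 97.3 and 83 CPM. All 3 SP- libraries lay below all others at that time. The difference between the mated groups was 0.79 ± 0.35 (log2, SE; adjusted p 0.691; 95% interval 0.105 to 1.48). At 12 h sug stood at 91.8, 94.6 and 94.4 CPM in SP+ females, 70.7, 50 and 46.5 CPM in SP- females and 60.5, 66.8 and 61.3 CPM in virgins. The SP+ libraries were above all others and nearly equal among themselves. The differences were 0.75 ± 0.317 against SP- females (adjusted p 0.131; 95% interval 0.125 to 1.37) and 0.57 ± 0.315 against virgins (adjusted p 0.341; 95% interval -0.0424 to 1.19). CG13319, which shares 98 bp with sug on the same strand, was called at that time and higher in SP+ than SP- females by 0.64 ± 0.137 (adjusted p 0.000928). Its part in the counts of sug was not tested. At 24 h the order differed: sug stood at 59.7, 67.2 and 41 CPM in SP+ females, 53.9, 74.6 and 103 CPM in SP- females and 87.2, 75.7 and 76.9 CPM in virgins. SP+ females lay below all virgins, by -0.51 ± 0.314 (adjusted p 0.213; 95% interval -1.13 to 0.103).

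The change of sug with time was called in SP- females (adjusted p 0.000787; 36.5% of all genes called) and not in SP+ females (0.202) or virgins (0.785). SP- females had 120, 119 and 113 CPM at 6 h, against 41.2, 51.4 and 56.3 CPM at 2 h and 70.7, 50 and 46.5 CPM at 12 h. The call was lost without repeat B, where the adjusted p was 0.379. Whether the change with time differed between treatments was tested directly and not called, with an adjusted p of 0.13 between the mated groups and 0.207 between SP- females and virgins.

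The single-time calls of the alpha-glucosidase gene tobi, all lower in SP+ females, came late in the series. At 12 h, tobi stood at 86.1, 228 and 171 CPM in SP+ females, 450, 902 and 812 CPM in SP- females and 582, 678 and 759 CPM in virgins. All SP+ libraries lay below all others, and the SP- and virgin ranges overlapped. Against SP- females tobi fell by 2.15 ± 0.679 (log2, SE; adjusted p 0.0318; 9.82% of all genes called), which is 4.45-fold lower. Against virgins the difference was -2.05 ± 0.676, just short of the threshold (adjusted p 0.0544), and it was -2.15 with an adjusted p of 0.0048 when the repeat was a block. The call against SP- females did not hold without any 1 of the repeats, at log2 differences of -2.30 to -2.09. At 8 h the order was the same, with 99.9, 189 and 82.6 CPM in SP+ females, 385, 371 and 261 CPM in SP- females and 408, 251 and 437 CPM in virgins. Those differences, -1.45 ± 0.668 against SP- females and -1.56 ± 0.67 against virgins, missed the threshold (adjusted p 0.239 and 0.226). SP- and virgin females differed by 0.10 ± 0.648 at 12 h (95% interval -1.17 to 1.37).

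At 24 h, tobi had its lowest group mean of the series, with 15, 128 and 41.3 CPM in SP+ females, against 152, 409 and 329 CPM in SP- females and 118, 257 and 231 CPM in virgins. Repeat B of the SP+ females reached into the virgin range, while all 3 lay below the SP- libraries. The differences were -2.30 ± 0.69 against SP- females (log2, SE; adjusted p 0.0099; 28.3% of all genes called) and -1.75 ± 0.679 against virgins (adjusted p 0.0449; 29.2% called). Repeats A and C, which stood apart over all genes, held the 2 lowest tobi values of the group. Without repeat A of that group the differences were -1.82 (adjusted p 0.072) and -1.26 (0.2), and without repeat C -2.09 (0.074) and -1.54 (0.21). Both calls were also lost without repeat C of the whole series and in a fit of the 24 h libraries alone, and the second without repeat A of the whole series.

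**Figure D2:**
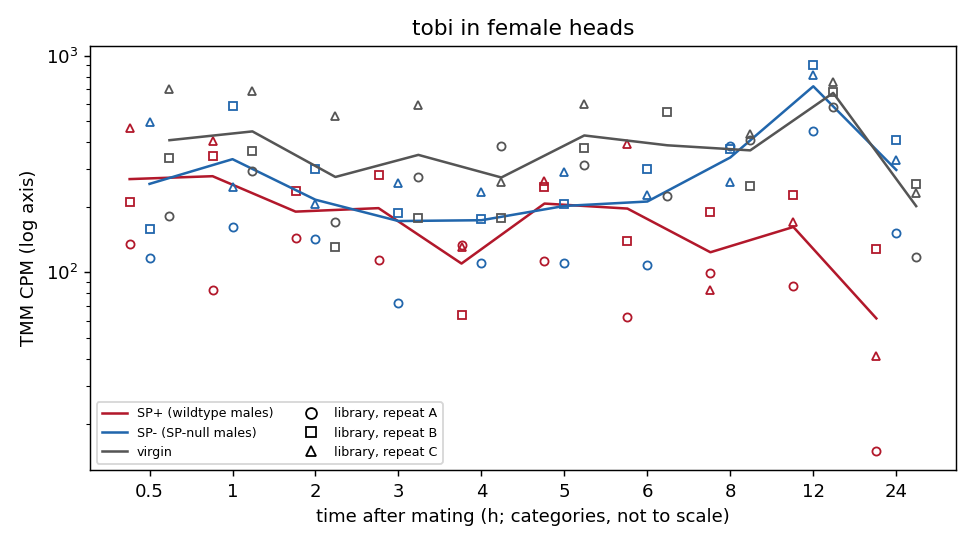
Expression of tobi in female heads, in TMM-scaled CPM on a log axis, at 10 times after mating spaced as categories. Symbols are single libraries by repeat and lines join group means. SP+ libraries lie at 15 to 128 CPM at 24 h, and repeat A (circles) is the lowest library in 20 of the 27 groups with 3.

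At each of the 10 times the fitted tobi level was lower in SP+ females than in virgins, by -0.53 to -2.05 (log2). The change of this difference with time was not called in edgeR's F test (adjusted p 0.852; 14.2% of all genes called). It was not called in any alternative run either (adjusted p 0.425 to 0.93). The F test over all times was called for SP+ against virgin females (adjusted p 0.0111) and against SP- females (adjusted p 0.0456), and not for SP- against virgin females (adjusted p 0.732). Among all genes these tests called 28.6%, 18.5% and 7.06%, in that order. Dropping any 1 repeat took away the first call (adjusted p 0.0582 to 0.168) and the second (0.166 to 0.329). Dropping repeat A or C of SP+ females at 24 h alone took away the second (0.102 and 0.116). SP- females were lower than virgins at 8 of 10 times, with differences of -1.08 to 0.55 that were called at none.

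The repeats differed in tobi, which had the widest spread of repeat means among the 6 genes. Of the 27 groups with 3 libraries, repeat A was the lowest of the 3 in 20, B in 5 and C in 2. The mean over these groups was 7.25 log2 CPM in repeat A, 7.97 in B and 8.28 in C. With the repeat as a block, the adjusted p over all times became 7.32e-05 against virgins and 0.00103 against SP- females. The block also turned 3 tests into calls: the change with time of the difference between the mated groups (adjusted p 0.0152, against 0.2 without the block), time in SP+ females (0.0252, against 0.143) and time in SP- females (0.0039, against 0.0974).

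Srg1 showed the opposite order of treatments at late times, as the choice of this gene fixed. At 12 h it stood at 11.5, 8.11 and 9.57 CPM in SP+ females, 1.14, 0.719 and 1.81 CPM in SP- females and 1.09, 1.79 and 1.37 CPM in virgins. Each SP+ library lay far above all 6 others, which overlapped among themselves. The fitted difference was 2.98 ± 0.414 against SP- females and 2.79 ± 0.4 against virgins (log2, SE). At 24 h the values were 18.2, 12.7 and 21.2 CPM in SP+ females, 4.69, 5.68 and 8.54 CPM in SP- females and 4.96, 5.52 and 11.3 CPM in virgins. The SP+ libraries were again above all others, by 1.47 ± 0.308 against SP- females and 1.28 ± 0.301 against virgins. These differences stayed between 2.50 and 3.35 at 12 h and between 1.04 and 1.61 at 24 h in all alternatives run. CG7016, whose end overlaps Srg1 on the other strand, differed at 12 h by 0.19 ± 0.114 between the mated groups, with an adjusted p of 0.318, and at 24 h by -0.40 ± 0.112, with an adjusted p of 0.00588.

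The late gap in Srg1 fell at the low point of SP- females and virgins. Virgins had their lowest mean of the series at 12 h, at 1.42 CPM, and their highest at 0.5 h, at 7.85 CPM. SP- females were at 1.23 CPM at 12 h after a high of 12.2 CPM at 2 h. SP+ females never fell below a mean of 6.59 CPM, at 4 h. The F tests of time use libraries that also entered the choice of Srg1. Time was called in all 3 treatments, with an adjusted p of 0.00137 in SP+ females, 6.23e-08 in SP- females and 5.32e-05 in virgins. Among all genes these tests called 52.6%, 36.5% and 29%, in that order. The SP+ call was lost without repeat A (0.0561) or B (0.0555).

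Early after mating Srg1 was also higher in SP- females than in virgins. The tests of this comparison use libraries that also entered the choice of Srg1, and are not independent of it. At 2 h, SP- females had 16.7, 8.88 and 11 CPM and virgins 3.34, 4.86 and 7.98 CPM, and the groups did not overlap. The difference was 1.20 ± 0.328 (log2, SE; adjusted p 0.017), where 4.55% of all genes were called. SP+ females had 9.74 and 8.02 CPM at that time. The 2 h call was lost without repeat A, at 0.63, without repeat B, at 1.31 with an adjusted p of 0.11, and in a fit of the 2 h libraries alone (adjusted p 0.17). At 3 h the values were 11.5, 8.28 and 5.6 CPM in SP- females and 4.71, 3.36 and 3.29 CPM in virgins, and the difference of 1.15 ± 0.356 missed the threshold (adjusted p 0.0611) but reached it with the repeat as a block (0.028). Over all times Srg1 was called between SP- and virgin females (adjusted p 0.0244, a test that called 7.06% of all genes), and this was lost without repeat A (0.341) or B (0.515). The change of that difference with time was not called (adjusted p 0.17).

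**Figure D3:**
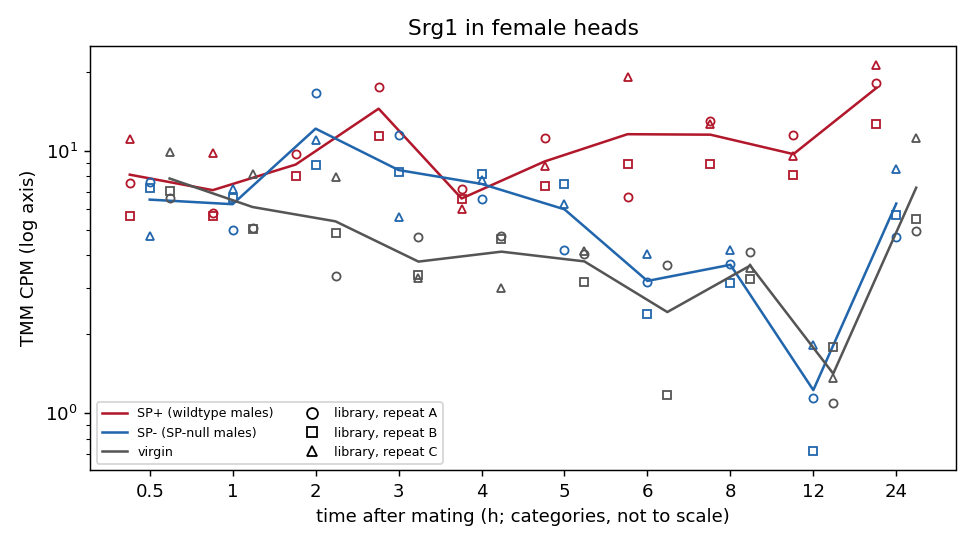
Expression of Srg1 in female heads, in TMM-scaled CPM on a log axis, at 10 times after mating spaced as categories. Symbols are single libraries by repeat and lines join group means. At 12 h SP- and virgin libraries lie between 0.719 and 1.81 CPM and SP+ libraries between 8.11 and 11.5 CPM.

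The summed level of the fat body markers at 12 h was 137417 to 143114 CPM in SP+ females, 99065 to 104931 CPM in SP- females and 95519 to 115468 CPM in virgins, with no overlap of the SP+ range with the others. At 24 h it was 159170 to 184871 CPM in SP+ females, 88813 to 177736 CPM in SP- females and 72075 to 125527 CPM in virgins. These sums were mostly yolk protein transcripts. Over all libraries Yp1, Yp2 and Yp3 had medians of 50341, 33016 and 39223 CPM, and the other markers medians of 0.678 to 8192 CPM. Of the 8 markers, 2 were called as higher in SP+ females against virgins at 12 h, where 4.18% of all genes were called as higher, and 4 at 24 h, where 14.6% were. Against SP- females 2 were called as higher at 12 h (6.49% of all genes) and 1 at 24 h (14.4%). Calls of these markers as lower are not given here. The defining larval serum protein gene Lsp2 ranged from 366 to 19227 CPM over the libraries, and Fbp1 reached at most 3.49 CPM. The part of fat body content in the results for Mondo, tobi and Srg1 was not tested.

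Over the means of the 30 groups, Srg1 and tobi ran opposite to each other, with a Pearson r of -0.79 on the log2 scale. This describes these groups, which share repeats and times, and the late SP+ groups enter it. Among the other pairs of the 6 genes only Amy-p with Amy-d (0.89), tobi with Amy-d (0.55) and Srg1 with Amy-d (-0.41) passed 0.4 in size. Of 8693 genes with a mean of at least 1 log2 CPM, those most like Srg1 over the 30 group means were Elal (r 0.92), MFS9 (0.915), CG16743 (0.899), CG5254 (0.891) and CG33296 (0.887). Those most like tobi were Npc2h (0.884), CG3699 (0.87) and CG7322 (0.867). For Mondo they were CG17292 (0.759), ERR (0.741) and CG14767 (0.73). The sug pattern had no close match, with CG14367 (0.536), D19A (0.534) and bigmax (0.53) at the top, the last of these being the partner of Mondo.

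The alpha-amylase copies were low in heads, and 1 virgin library set most of their differences. In repeat A of virgins at 4 h Amy-p had 2376 counts (127 CPM), against 93 and 111 counts (4.79 and 5.66 CPM) in repeats B and C of that group. Amy-d had 1563 counts there (83.5 CPM), against 201 and 215 (10.3 and 11 CPM). Outside this library, no library passed 9.51 CPM for Amy-p or 19.1 CPM for Amy-d. It was also the only library with more Amy-p than Amy-d counts, at a ratio of 1.52, where the median over 87 libraries was 0.463 and the next highest 0.828. The lowest ratio, 0.0303, came from repeat B of SP- females at 6 h, with 1 count of Amy-p and 33 of Amy-d, and repeat A of SP- females at 12 h had 5 counts of Amy-p.

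Amy-d was not itself used to choose the genes. Its highest library is the virgin library that chose Amy-p, so its tests that include virgins are not independent of that choice. In edgeR's F tests Amy-d was called between SP+ and virgin females over all times (adjusted p 0.0259) and in virgins over time (adjusted p 0.00357). Among all genes these tests called 28.6% and 29%. At 4 h, SP+ females had 6.14, 8.21 and 8.19 CPM and SP- females 6.85, 6.15 and 9.68 CPM, all below the 83.5, 10.3 and 11 CPM of virgins. The log2 differences from virgins at 4 h were -2.21 ± 0.516 in SP+ females (adjusted p 0.0316; 0.355% of all genes called) and -2.21 ± 0.517 in SP- females (adjusted p 0.0109; 2.19%), and both use the same virgins. Without the high virgin library all these calls were lost: the differences at 4 h were -0.50 in both, and the adjusted p was 0.241 over all times and 0.536 for time in virgins. For Amy-p the fitted differences from virgins at 4 h, which chose it, were -3.83 ± 0.697 in SP+ females and -3.70 ± 0.693 in SP- females, and -0.71 and -0.58 without that library.

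At 24 h both copies were lower in SP+ females. Amy-p stood at 0.91, 2.88 and 0.818 CPM in SP+ females, 3.9, 5.84 and 7.14 CPM in SP- females and 2.55, 5.02 and 9.51 CPM in virgins. SP+ libraries lay below all SP- ones, and repeat B overlapped the virgins. The difference between the mated groups was -2.11 ± 0.811 (log2, SE; adjusted p 0.0436; 28.3% of all genes called). It was lost without any 1 repeat, without either of the SP+ libraries that stood apart (-1.65 without A and -1.95 without C), in a fit of the 24 h libraries alone and when both copies were summed (-1.45, adjusted p 0.07). Amy-d had 3.17, 8.54 and 3.44 CPM in SP+ females, 9.38, 10.1 and 13.4 CPM in SP- females and 5.31, 10.6 and 16.6 CPM in virgins. Its differences of -1.24 ± 0.547 against SP- females (adjusted p 0.0794) and -1.23 ± 0.544 against virgins (adjusted p 0.08) were called only without the high virgin library at 4 h, with an adjusted p of 0.033 for each.

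**Figure D4:**
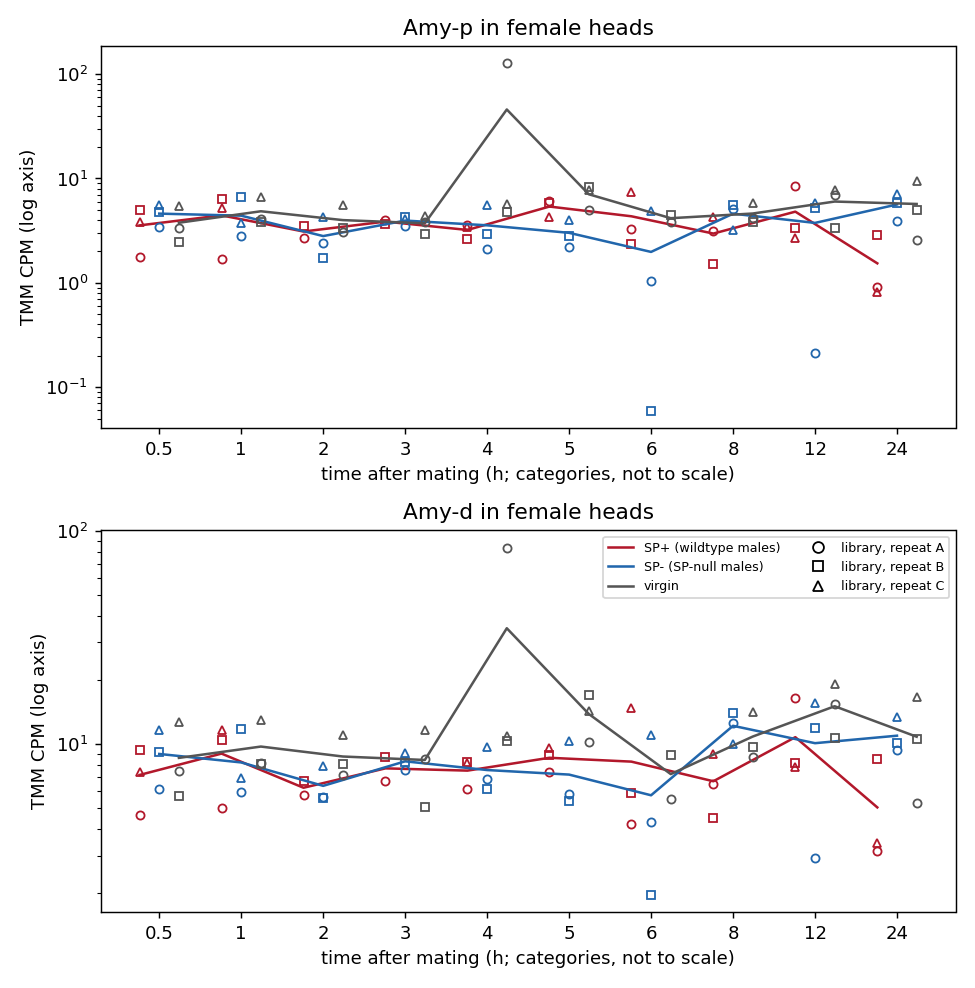
Expression of Amy-p (upper panel) and Amy-d (lower panel) in female heads, in TMM-scaled CPM on log axes, at 10 times after mating spaced as categories. Symbols are single libraries by repeat and lines join group means. The virgin library of repeat A at 4 h stands at 127 and 83.5 CPM, and the next highest libraries at 9.51 CPM for Amy-p and 19.1 CPM for Amy-d.

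Over the 87 libraries their log2 CPM correlated at 0.915 by Pearson's r and 0.887 by Spearman's rho, given as a description of libraries that share groups and repeats and include the virgin library that chose Amy-p. Within repeats r was 0.929 in A, 0.903 in B and 0.918 in C, and it was 0.878 over all libraries without the 2 farthest from the Amy-p median. Reads shared between near-identical copies enter this relation, and their part was not tested.

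Set side by side, the late differences from virgins had one sign in Srg1 and the other in tobi. At 12 h the log2 difference of SP+ from virgin females was 2.79 for Srg1, 0.57 for sug, -0.32 for Mondo, -0.37 for Amy-p, -0.50 for Amy-d and -2.05 for tobi. At 24 h it was 1.28 for Srg1, 0.28 for Mondo, -0.51 for sug, -1.23 for Amy-d, -1.75 for tobi and -2.13 for Amy-p. SP- females differed from virgins at 12 h by -0.19 for Srg1, -0.17 for sug, -0.04 for Mondo, -0.74 for Amy-p, -0.60 for Amy-d and 0.10 for tobi. Outside Amy-p, which these contrasts helped to choose, the adjusted p of the other 5 was at least 0.966.

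**Figure D5:**
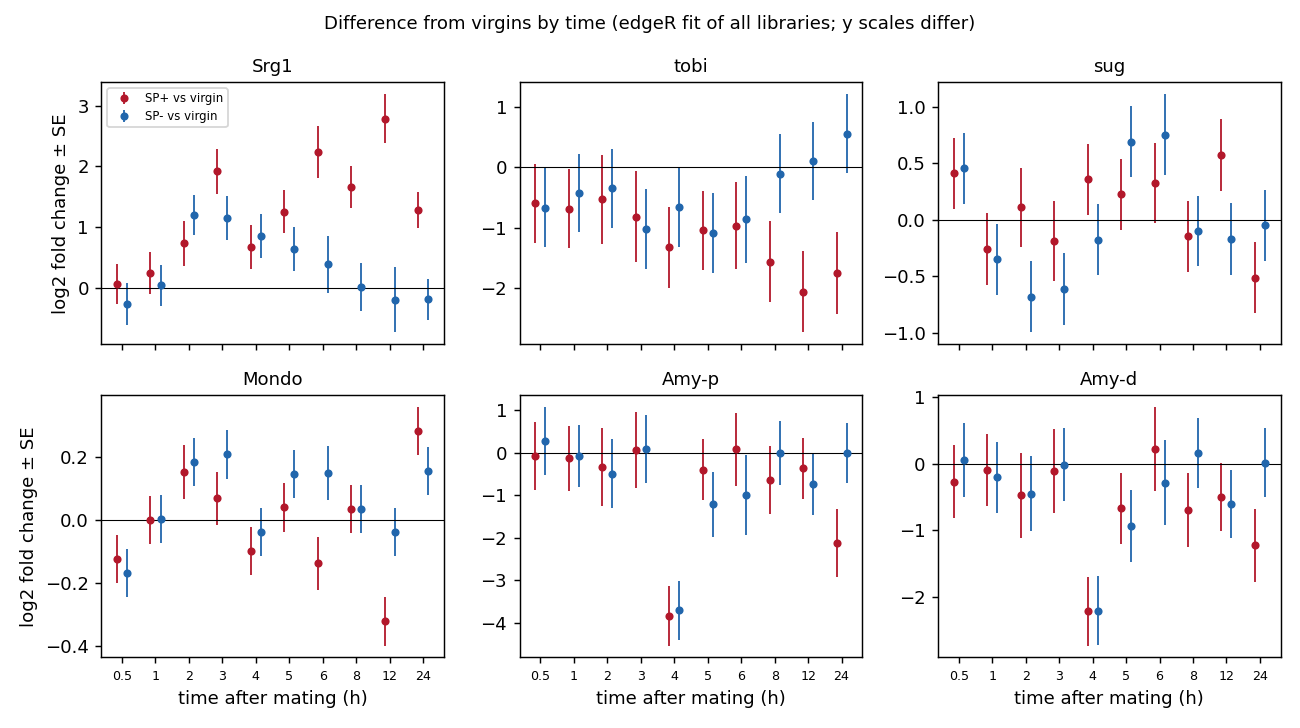
Log2 fold change against virgins by time after mating for the 6 genes, with SP+ females in red and SP- females in blue. Points are fitted values and bars their SE, and the y scales differ between panels. The SP+ values of Srg1 reach 2.79 and those of tobi -2.05 at 12 h, where the SP- values are -0.19 and 0.10.

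The other genes of sugar metabolism were read from 5 lists of 53 genes, of which 41 were tested. Over all times 21 of the 41 were called between SP+ and virgin females, where 28.6% of all genes were called. Between SP- and virgin females 8 were called, against 7.06% of all genes, and between the mated groups 11, against 18.5%. The count of 8 was 2 whichever repeat was left out, in fits whose share over all genes is not given here. The difference changed with time for 13 of the 41 between SP+ females and virgins (14.2% of all genes), 2 between SP- females and virgins (5.62%) and 7 between the mated groups (11.8%).

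The list of genes known to respond to sugar through Mondo, which also holds its partner bigmax, had 13 of 15 genes tested. It gave 10 of the 21 calls between SP+ females and virgins. At 12 h, 4 of the 13 were called and all were higher in SP+ females, against virgins (6.32% of all genes called, 4.18% as higher) and against SP- females (9.82%, 6.49% as higher). The median log2 difference of the list from virgins was 0.31, beside -0.00 over all genes. At 24 h the direction was mostly the other way, with 1 higher and 6 lower against virgins (29.2% of all genes called, 14.6% as higher and 14.6% as lower) and 1 higher and 7 lower against SP- females (28.3%, 14.4% as higher and 13.9% as lower). The median difference from virgins was then -0.30, beside 0.02 over all genes. Without repeat A of SP+ females at 24 h, 1 was called higher and 4 lower against virgins, and without repeat C 0 higher and 3 lower. Against SP- females these counts were 0 higher and 6 lower without repeat A, and 0 higher and 2 lower without repeat C. At 12 h the 4 calls against virgins became 3, 1 and 2 without repeats A, B and C, all higher. The share of all genes called in these fits of fewer libraries is not given here.

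Within this list the activin-like ligand gene daw had 150, 139 and 136 CPM in SP+ females at 12 h, 77.8, 72.4 and 65.5 CPM in SP- females and 65.6, 77.1 and 75.3 CPM in virgins. Its libraries did not overlap with either group, at differences of 0.98 ± 0.183 against SP- females (adjusted p 0.000125) and 0.96 ± 0.183 against virgins (adjusted p 0.000176). The acetyl-CoA synthase gene AcCoAS was higher at 12 h too, by 0.79 ± 0.156 and 0.77 ± 0.156, and lower at 24 h, by -0.48 ± 0.156 and -0.50 ± 0.156, in the same order of comparisons. Its 12 h calls were lost without repeat B (adjusted p 0.0875 and 0.0557). Pfrx, which makes an activator of glycolysis, had 272, 328 and 224 CPM in SP+ females at 24 h, 448, 490 and 558 CPM in SP- females and 443, 552 and 511 CPM in virgins. Its differences of -0.86 ± 0.115 and -0.87 ± 0.115 were called in every alternative run, as were those of daw at 12 h. The fat synthesis gene ACC, coding for acetyl-CoA carboxylase, was lower at 24 h by -0.76 ± 0.146 and -0.64 ± 0.145, also in every alternative run.

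In SP- females the genes named from this list were lower than in virgins at 0.5 h to 4 h. The transcription factor gene cbt had 86.3, 78.8 and 81.5 CPM in SP- females at 0.5 h and 152, 138 and 140 CPM in virgins, a difference of -0.80 ± 0.129 (adjusted p 0.000144) that was lost without repeat B (adjusted p 0.145). In SP+ females cbt was lower than in virgins at the same time by -0.59 ± 0.128 (adjusted p 0.0113). Of all genes, 0.676% were called in SP- females at 0.5 h and 0.266% in SP+ females. The pentose phosphate pathway genes Pgd and Taldo were lower at 3 h, by -0.67 ± 0.177 and -0.59 ± 0.167 (2.98% of all genes called), and ATPCL, coding for ATP citrate lyase, was lower at 4 h, by -0.52 ± 0.141 (2.19%). Each of these 3 calls was lost when repeat A or repeat C was left out, those of Pgd and ATPCL also without repeat B, and that of ATPCL also without the virgin library of repeat A at 4 h.

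Among the maltase genes, 5 of 11 were tested with the amylase relative Amyrel counted in the 11, and the genes called at single times were lower in mated females. In SP- females this was Mal-A5 at 4 h, lower than in virgins by -0.24 ± 0.0572 (adjusted p 0.0109, edgeR; 2.19% of all genes called). Mal-B1 had 3.85, 3.82 and 4.2 CPM in SP+ females at 8 h and 6.79, 7.47 and 6.07 CPM in virgins, a difference of -0.77 ± 0.155 (adjusted p 0.000809) that was called in every alternative run, where 3.67% of all genes were called. Mal-A1 and Mal-A5 were lower at 8 h by -0.55 ± 0.163 and -0.21 ± 0.0572, and neither was called once any 1 of the repeats was dropped. Against SP- females Mal-B1 was lower at 12 h by -0.56 ± 0.149, lost without repeat A or C, and Mal-A5 by -0.20 ± 0.0571, lost without repeat A or B.

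All 10 genes of trehalose and glycogen handling were tested. Treh, coding for the enzyme that splits trehalose, was lower in SP+ females at 12 h, with 550, 487 and 526 CPM against 663, 629 and 688 CPM in SP- females and 728, 629 and 735 CPM in virgins. The differences of -0.34 ± 0.106 against SP- females (adjusted p 0.0289) and -0.42 ± 0.106 against virgins (adjusted p 0.00706) were both lost without repeat B (0.232 and 0.071) or C (0.165 and 0.0949), and the first also without repeat A (0.0504). Tps1, coding for the enzyme that makes trehalose, was lower at 4 h than in virgins by -0.55 ± 0.135 in SP+ and -0.59 ± 0.135 in SP- females, which share the virgins. At that time 0.355% of all genes were called in SP+ females. Without the virgin library of repeat A these were -0.45 (adjusted p 0.254) and -0.49 (0.0907). The SP+ call was also lost without repeat A (0.201), B (0.275) or C (0.307) and in a fit of that time alone (0.0898), and the SP- call without repeat A (0.203) or B (0.0953). The glycogen branching enzyme gene AGBE was lower in SP- females at 3 h by -0.50 ± 0.145, a call lost without repeat A or C.

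Of 6 tested sugar transporter genes, the trehalose transporter gene Tret1-1 turned round between 12 h and 24 h. It was lower in SP+ females at 12 h, by -0.52 ± 0.102 against SP- females (adjusted p 0.000238; 9.82% of all genes called) and -0.51 ± 0.102 against virgins (adjusted p 0.000421; 6.32% called). At 24 h it had 512, 459 and 563 CPM in SP+ females, 337, 355 and 361 CPM in SP- females and 269, 337 and 342 CPM in virgins. Those differences of 0.54 ± 0.102 and 0.69 ± 0.102 were called in every alternative run, where 28.3% and 29.2% of all genes were called. Tret1-2 was also lower in SP+ females at 12 h, by -0.91 ± 0.308 and -1.06 ± 0.303, and sut2 higher at 24 h, by 0.88 ± 0.278 and 0.76 ± 0.27. The nebu gene was lower in SP+ than SP- females at 12 h, by -0.35 ± 0.117, and higher in SP- females than virgins at 2 h, by 0.37 ± 0.116. None of these added genes was called between treatments over all times.

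The list of sugar hormones and their receptors had 7 of 8 genes tested. The calls of SP+ females against virgins at 24 h were 4, all higher, where 29.2% of all genes were called and 14.6% as higher. They were Ilp6, a fat body insulin-like peptide gene, by 0.68 ± 0.148, ImpL2, coding for a secreted binder of insulin-like peptides, by 0.67 ± 0.185, Ilp5 by 0.54 ± 0.179 and the insulin receptor gene InR by 0.36 ± 0.123. The call of Ilp6 was lost without repeat A (0.47, adjusted p 0.0652) and in a fit of that time alone (0.0706), and that of ImpL2 without repeat C (0.58, adjusted p 0.136) or without repeat C of SP+ females at 24 h (0.57, 0.0614). ImpL2 had 86.6, 109 and 86.2 CPM in SP+ females at 12 h and 50.6, 49.3 and 64.8 CPM in SP- females, a difference of 0.78 ± 0.186 (adjusted p 0.00334) lost without repeat B. Ilp6 was higher in SP- females than in virgins at 2 h, with 79.2, 56.4 and 86.3 CPM against 32.8, 45 and 48.9 CPM. That difference of 0.81 ± 0.148 (adjusted p 8.56e-05) was lost without repeat A (0.61, adjusted p 0.0788) and in a fit of that time alone (0.0817). At 6 h Ilp6 had 57.9, 74.6 and 68.3 CPM in SP+ females and 40.3, 38.4 and 51.6 CPM in SP- females, with no overlap. The difference of 0.62 ± 0.148 (adjusted p 0.00732, where 3.31% of all genes were called) was lost without repeat B (0.45, adjusted p 0.372).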

How the data were processed

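Raw counts for genes and for exon bins were deposited by the authors, with 1 column for each library. Per the submitters' processing notes, Trimmomatic 0.39, STAR 2.7.5a, HTSeq 0.11.2 and edgeR were used on build dm6 (BDGP6); the sources used here do not give settings or the use of strand in counting. From the gene counts, 1 quasi-likelihood model with a mean for each of 30 groups was fitted to 87 libraries in R 4.3.3 with edgeR 4.0.16 (TMM scaling, filterByExpr with a minimum count of 10 and a minimum total of 15, 9024 genes, robust dispersions). F tests covered all 10 times together, the change of a difference with time, and time within a treatment, with single times as contrasts of that model. Adjustment was by Benjamini-Hochberg over all genes within a test, and an adjusted p under 0.05 is called. SE was taken as the size of the log2 fold change over the root of its F value. Log2 CPM used a prior count of 2, and 95% intervals are the log2 fold change with normal limits of its SE. No library pair differed by as little as sampling noise (lowest chi-square per degree of freedom 6.68). The script was tested on simulated data.

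The 6 genes, the lists and the tests were chosen with earlier results of these data known. Named list genes were up to 4 per list and pair of treatments, by size of log2 fold change, called over all times and at a single time at which the groups did not overlap. Ilp5, InR, cbt in SP+ females, Mal-A5 in SP- females, AcCoAS at 24 h and Tret1-1 at 12 h fall outside the rule, were added after their values were seen, and were not run under the alternatives. Genes most alike were ranked by Pearson r over group means. The repeat letters pair the samples because the whole series was repeated: same-letter libraries deviated from their group means with correlations of -0.229 to 0.335 (median 0.0784), 36 of 84 above 0.1. The main fit did not use this pairing, so its SE and adjusted p ignore it, and the replicate block is given as an alternative. Alternatives were RLE size factors, no filter, DESeq2 1.42.0, a replicate block, each repeat left out, a separate fit of each time and the amylases summed; leaving out single libraries was chosen after seeing the data. Depth limits counting error only.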

Additional observations from a re-analysis of the deposited data

Results flagged for a closer look

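The difference in Mondo between SP+ and virgin females was not the same at all times, at 0.00217 for the adjusted p of its change over time (edgeR's quasi-likelihood test), where 14.2% of all genes were called. The log2 difference was -0.32 at 12 h and 0.28 at 24 h. The difference between SP+ and SP- females changed with time too, with an adjusted p of 0.0381, where 11.8% of all genes were called, and these comparisons share the SP+ libraries. The first was lost without repeat A (0.114) or C (0.0948). The second was lost whichever repeat was left out (0.0895 to 0.245), and without repeat A or C of SP+ females at 24 h (0.0779 and 0.0511).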

How the results depend on the processing

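Counts of called list genes were within 1.5 times the values above with RLE size factors and without the filter. Leaving out a single library that stood apart gave 19 to 20 in place of 21 for SP+ against virgin females over all times, 9 to 10 in place of 11 between the mated groups and 9 to 12 in place of 13 for a change with time between SP+ females and virgins. The exceptions elsewhere follow, all for the 41 genes. With the replicate block the count for a change with time between SP- females and virgins was 5 in place of 2, and with DESeq2 it was 7, while DESeq2 called 11 in place of 7 between the mated groups. Leaving out 1 repeat gave 9 to 14 in place of 21 for SP+ against virgin females over all times, 2 in place of 8 for SP- against virgin females and 5 to 8 in place of 11 between the mated groups. For a change with time it gave 1 to 5 in place of 13, 0 to 2 in place of 2 and 1 to 4 in place of 7 in the same order. For time within a treatment it gave 17 to 20 in place of 25 in SP+ females, 16 to 22 in place of 29 in SP- females and 13 to 18 in place of 28 in virgins. Each of these fits used fewer libraries. Over all genes, the fit of all libraries called 52.6%, 36.5% and 29% for time in SP+ females, SP- females and virgins. The share of all genes called with a repeat left out is not given here. Whether the loss of calls is particular to the list genes was not tested. For the 6 genes, the block changed the calls named beside Mondo, tobi and Srg1 and no other of theirs. No called result of the 6 genes changed direction in any alternative run.

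Most groups held 3 libraries, so a call often rested on a single repeat, and 3 groups held 2. At 24 h the list calls against virgins fell to 4 of 41 (3.99% of all genes) in a fit of that time alone, against 15 in the fit of all libraries.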
